A study of Mus musculus with 24 samples.

Results

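The ATG8 family genes described here are Map1lc3a, Map1lc3b, Gabarap, Gabarapl1 and Gabarapl2. They were taken by gene symbol from the deposited gene table, which makes 5 of its 55487 genes, and all 5 passed the filter on low counts that left 15401 genes for testing. The libraries were made from polyadenylated RNA of mouse embryonic fibroblasts (MEFs), either wild type (WT) or described as double knockout for Tfeb and Tfe3 (tfeb tfe3 DKO, below DKO). Cells of each genotype received vehicle (DMSO, 0.1%), torin1 (100 nM), a catalytic inhibitor of MTOR, or MK-8722 (10 μM), a direct activator of AMPK, and the time of treatment for sequencing is not given in the sources used here. Each of the 6 groups holds 4 libraries, each from a culture at another passage, so the 24 libraries cover the spread between passages of 1 WT and 1 DKO line. Both lines came from another laboratory, with no statement of how many clones they stand for, and a difference between the lines cannot be told apart from a difference made by the knockout.

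ATG8 proteins are small ubiquitin-like proteins that are cut at their C terminus by ATG4 proteases and then joined to phosphatidylethanolamine on the growing autophagosome membrane by ATG7, ATG3 and the ATG12–ATG5-ATG16L1 complex. On the membrane they hold cargo receptors that carry an LC3-interacting region, and they take part in the closure of autophagosomes and their fusion with lysosomes. In mice they form the LC3 subfamily, here Map1lc3a and Map1lc3b, and the GABARAP subfamily, here Gabarap, Gabarapl1 (also called GEC1) and Gabarapl2 (also called GATE-16). TFEB and TFE3 are transcription factors of lysosomal and autophagy genes that bind the E-box CACGTG within the CLEAR element, and MTORC1 holds them in the cytosol by phosphorylation.

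The members lie on the plus strand of GRCm38, each with a coding transcript of 4 exons as annotated by GENCODE. Map1lc3a is at chr2:155276297-155278073, Map1lc3b at chr8:121590361-121598760, Gabarap at chr11:69991143-69994951, Gabarapl1 at chr6:129533160-129542346 and Gabarapl2 at chr8:111940703-111953612. RefSeq promoters (GRCm38.p6) were matched by symbol for 4 of the 5 members, all but Map1lc3a. They are shown because 2 of the 3 genes that responded to the drugs, Map1lc3b and Gabarapl1, can be set beside Gabarapl2, whose response to the drugs was not called different between the genotypes. The bases printed run 5′ to 3′ from 250 bases before the RefSeq start up to the first base annotated by GENCODE, and capitals mark the general E-box CANNTG. They cover chr8:121590188-121590360 for Map1lc3b, chr6:129532942-129533159 for Gabarapl1 and chr8:111940453-111940702 for Gabarapl2, all on the plus strand.
Map1lc3b: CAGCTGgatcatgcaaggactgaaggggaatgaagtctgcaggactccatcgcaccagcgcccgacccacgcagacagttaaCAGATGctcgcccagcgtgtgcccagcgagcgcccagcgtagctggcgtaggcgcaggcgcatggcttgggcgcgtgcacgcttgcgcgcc
Gabarapl1: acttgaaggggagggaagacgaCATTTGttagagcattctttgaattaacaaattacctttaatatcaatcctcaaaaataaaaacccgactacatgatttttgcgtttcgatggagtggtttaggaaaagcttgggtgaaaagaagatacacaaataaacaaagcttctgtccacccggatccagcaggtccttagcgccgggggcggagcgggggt
Gabarapl2: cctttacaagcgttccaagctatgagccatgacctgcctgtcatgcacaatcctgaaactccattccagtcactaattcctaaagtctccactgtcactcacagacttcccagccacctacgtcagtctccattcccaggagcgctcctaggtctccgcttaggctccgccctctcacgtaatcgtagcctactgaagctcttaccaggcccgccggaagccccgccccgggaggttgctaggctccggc
The letters CACGTG, which read the same on both strands, were in 0 of the 4 member windows of 250 bases and in 6.02% of all 32851 windows of that length. CANNTG, of which CACGTG is a special case, was in 2 of the 4, at 2 places in Map1lc3b and 1 in Gabarapl1, and in 66.2% of all windows. It was at 0 places in Gabarap, which also responded to the drugs, and at 0 in Gabarapl2. A link between these letters and the response was not tested. The windows of Map1lc3b and Gabarapl1 differed in base composition, with a GC content of 69.6% in the first and of 46.8% in the second, beside 57.2% for Gabarapl2, 46.4% for Gabarap and a median of 52.4% over all windows. The window of Gabarap is not printed because all but 23 of its bases lie inside the transcribed region that GENCODE annotates.

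Total estimated counts ranged from 24668921 to 33332562 per library, and a member had between 1130 and 6356 counts in a library. Tfeb was lower in DKO than in WT under DMSO by 3.35 on the log2 scale, and Tfe3 was not lower, since its transcript was still counted in DKO at 124 ± 2.11 CPM (counts scaled to library size, mean ± SD, n = 4) beside 120 ± 1.17 CPM in WT. Of 10 fibroblast markers, 9 had a mean over 10 CPM, with Thy1 at 1.56 CPM. The 5 epithelial markers summed to 25.3 to 34.0 CPM in WT libraries and to 43.3 to 72.2 CPM in DKO libraries, mostly Krt19, while Epcam and Cdh1 were under 2 CPM in every library. The endothelial, neural and muscle markers each summed to under 2 CPM, and the blood markers reached 14.3 CPM through Cd68 with Ptprc and Adgre1 at or near 0. WT libraries of passage 11 stood apart from the other libraries of their groups, since chi-square values divided by their degrees of freedom were 23.4 to 40.9 in the 9 pairs that held such a library and 3.98 to 16.8 in the other 27 pairs, so results in WT are also given without them.

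Levels were compared between members in TPM (a unit scaled by transcript length as well as depth). Gabarap was the most abundant member in every group, at 225 ± 11.6 TPM (SD, n = 4) in WT under DMSO, 41.1% of the family's summed TPM. There it was followed by Map1lc3b at 93.5 ± 6.15 TPM, Map1lc3a at 84.6 ± 4.51 TPM, Gabarapl2 at 80.1 ± 3.85 TPM and Gabarapl1 at 64.2 ± 3.37 TPM. The ranges of Map1lc3b and Map1lc3a overlapped, as did those of Map1lc3a and Gabarapl2, whereas Gabarapl1 stayed under the lowest library of Gabarapl2. Map1lc3b was the second most abundant member in every group, and with torin1 it stood at 185 ± 3.91 TPM in WT and 161 ± 6.65 TPM in DKO, clear of the members below it. The order of the lower members changed. Gabarapl1 was the lowest in all 3 DKO groups, at 54.0 to 64.6 TPM on average, whereas with either drug in WT it was at 90.1 and 93.2 TPM and overlapped its neighbours Map1lc3a with torin1 and Gabarapl2 with MK-8722. In DKO the ranges of Map1lc3a and Gabarapl2 overlapped under DMSO and torin1.

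The summed TPM of the family was 547 ± 17.7 in WT under DMSO, 811 ± 3.58 with torin1 and 759 ± 16.7 with MK-8722. The DKO sums were 580 ± 11.5, 601 ± 14.3 and 601 ± 11.8 in the same order. The WT libraries with either drug (738 to 815 TPM) all lay above every other library (528 to 615 TPM), and the DKO groups overlapped each other. TPM values are given as levels and were not tested.

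**Figure D1:**
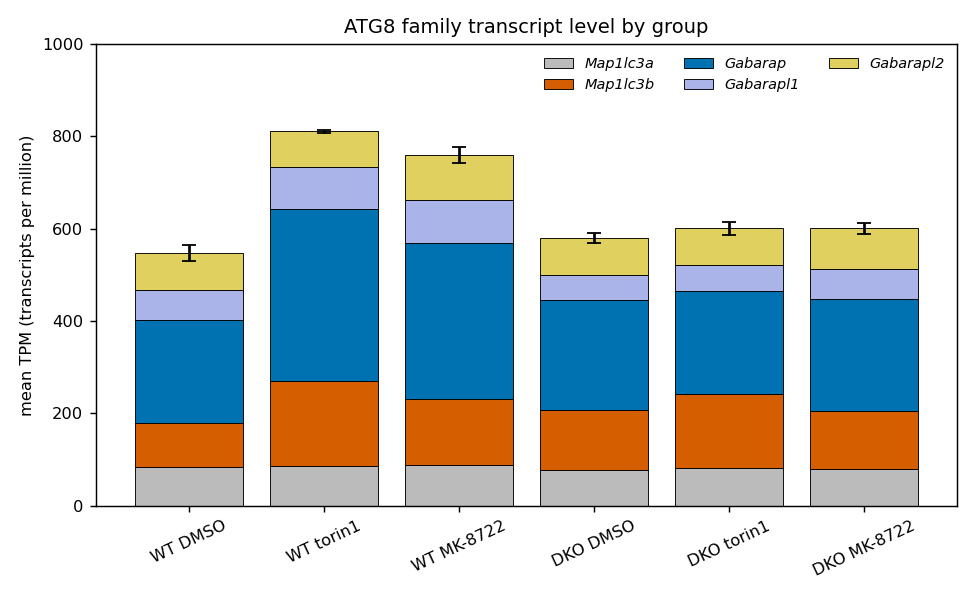
Mean TPM of the 5 members stacked by group (y axis, TPM; 4 libraries a group), with bars for the SD of the summed TPM. The sum stands at 811 and 759 in WT with torin1 and MK-8722 and between 547 and 601 in the other groups, and Gabarap takes the largest share of each column.

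In WT MEFs both drugs raised Map1lc3b, Gabarap and Gabarapl1, while Map1lc3a and Gabarapl2 were not called. Genes were called by edgeR's quasi-likelihood test where the Benjamini-Hochberg adjusted p over all genes tested was under 0.05 and the fold reached 1.2. With torin1, 3 of the 5 members were called higher and 0 lower, where 26.6% of all genes tested were called higher and 20.5% lower, so a change with torin1 was common. With MK-8722, the same 3 were called higher and 0 lower, where 10.3% of all genes were called higher and 5.87% lower, 16.1% either way. The median log2 fold change of the 5 was 0.36 with torin1 and 0.50 with MK-8722, beside 0.05 and -0.01 over all genes tested. In bulk RNA, a change in the cells that make a transcript and a change in its amount per cell cannot be told apart.

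Map1lc3b, the LC3 protein most used as a marker of autophagosomes, stood in WT at 97.3, 93.9, 96.6 and 90.1 CPM under DMSO, at 172.8, 178.4, 178.7 and 181.1 CPM with torin1, and at 143.4, 136.3, 138.9 and 145.1 CPM with MK-8722. The 3 groups did not overlap, with DMSO lowest and torin1 highest. The rise was 0.91 ± 0.041 on the log2 scale (SE, fold 1.88, edgeR adjusted p = 3.33e-14) with torin1 and 0.58 ± 0.041 (fold 1.49, adjusted p = 2.52e-10) with MK-8722. Gabarap, the founding member of its subfamily, stood at 121.3, 133.5, 132.4 and 129.0 CPM under DMSO, at 195.6, 201.9, 194.3 and 202.7 CPM with torin1, and at 191.2, 193.1, 196.3 and 180.9 CPM with MK-8722. Every drug library lay above every DMSO library, while the libraries of the 2 drugs overlapped each other. The rise was 0.62 ± 0.043 (fold 1.54, adjusted p = 2.87e-11) with torin1 and 0.56 ± 0.043 (fold 1.48, adjusted p = 9.18e-10) with MK-8722. Gabarapl1, a close relative of Gabarap, stood at 58.2, 60.9, 56.5 and 57.7 CPM under DMSO, at 74.6, 71.1, 76.3 and 76.9 CPM with torin1, and at 83.0, 78.1, 83.5 and 84.4 CPM with MK-8722. For Gabarapl1 all MK-8722 libraries lay above all torin1 libraries, where 52.2% of all genes had no overlap between the drugs. The difference between the drugs was not called for Gabarapl1 (torin1 against MK-8722 -0.14 ± 0.047, edgeR adjusted p = 0.015, fold 1.1 lower). Its rise was 0.36 ± 0.047 (fold 1.28, adjusted p = 8.61e-07) with torin1 and 0.50 ± 0.048 (fold 1.41, adjusted p = 3.48e-08) with MK-8722.

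The 2 remaining members were not called in WT. Map1lc3a was between 46.0 and 53.2 CPM in all 12 WT libraries, with log2 fold changes of -0.07 ± 0.051 for torin1 and 0.01 ± 0.051 for MK-8722 (edgeR adjusted p = 0.274 and 0.888). The 95% intervals of its change were -0.17 to 0.04 and -0.09 to 0.12, inside the fold threshold of 1.2 (0.263 on the log2 scale) in both directions. Gabarapl2 stood at 55.8, 57.8, 60.2 and 54.6 CPM under DMSO, at 50.5, 51.0, 54.8 and 53.8 CPM with torin1, and at 67.1, 63.5, 72.6 and 67.1 CPM with MK-8722. Its MK-8722 libraries lay above all others, with a log2 fold change of 0.24 ± 0.045 (adjusted p = 0.000232) whose fold of 1.18 was below the threshold, and its torin1 value was -0.12 ± 0.045 (adjusted p = 0.0254, fold 1.09 lower). Drug and DMSO libraries did not overlap for 3 members with torin1 and for 4 with MK-8722, beside 54.1% and 29.8% of all genes. The blood marker sum, nearly all Cd68, also moved with the drugs in WT, where its range in CPM was 1.57 to 2.24 for DMSO, 4.15 to 6.41 for torin1, then 10.1 to 14.3 for MK-8722. In DKO, where no member was called, its range was 4.1 to 6.1 for DMSO, 4.78 to 8.59 for torin1, then 7.86 to 11.2 for MK-8722, with Ptprc and Adgre1 at or near 0 in every library, and its part in these results was not tested. With the WT libraries of passage 11 left out, Gabarapl2 was called with MK-8722 at 0.27, and the values of the 3 called genes were 0.89, 0.615 and 0.35 with torin1 and 0.58, 0.56 and 0.53 with MK-8722 for Map1lc3b, Gabarap and Gabarapl1. When libraries of the same passage were compared, the 3 called genes rose with each drug in 4 of 4 passages, with log2 ratios of 0.88 to 0.99 for Map1lc3b, 0.55 to 0.68 for Gabarap and 0.29 to 0.44 for Gabarapl1 with torin1.

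**Figure D2:**
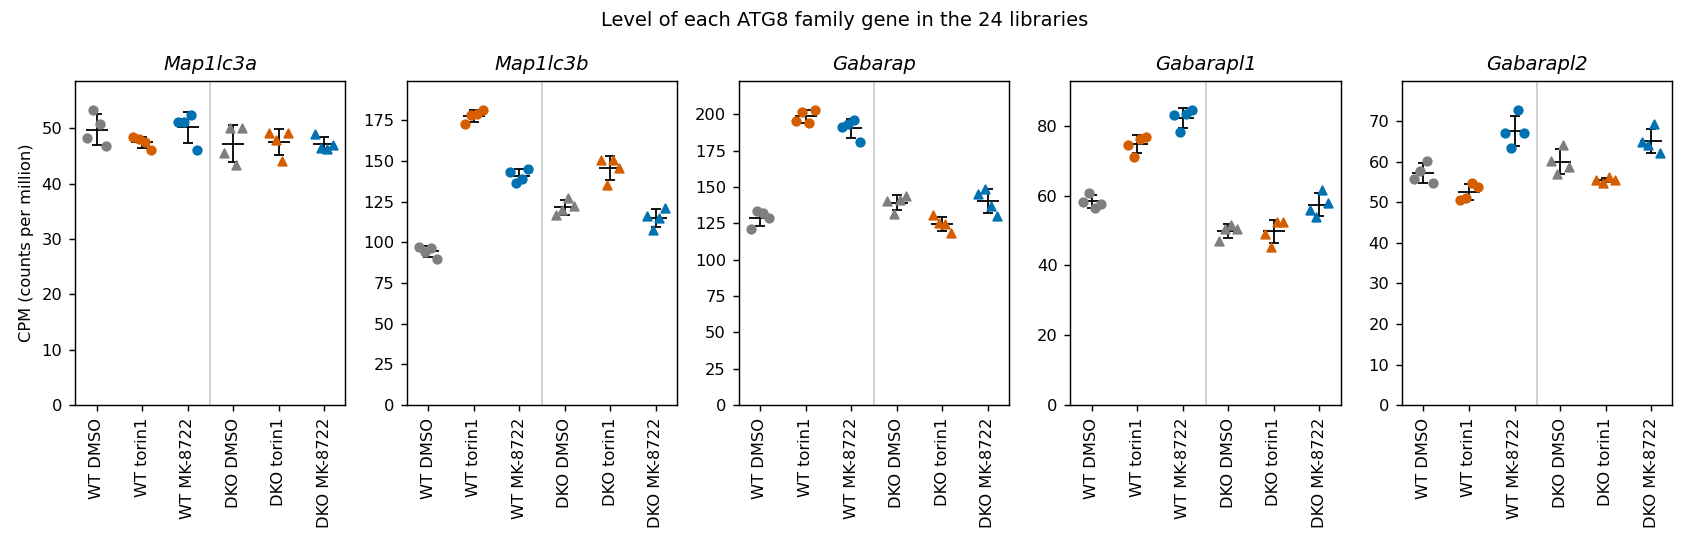
CPM of each member (y axes from 0) in the 24 libraries by group (x axis); circles are WT and triangles DKO libraries, and black lines give the mean ± SD of 4. In WT the drug libraries of Map1lc3b, Gabarap and Gabarapl1 lie above the DMSO libraries, whereas in DKO only Map1lc3b with torin1 and Gabarapl1 with MK-8722 lie wholly above DMSO among these genes.

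In DKO MEFs, 0 of the 5 members were called with either drug. Among all genes, 43.2% were called with torin1 and 8.69% with MK-8722, either way. Drug and DMSO libraries did not overlap for 3 members with torin1 and for 1 with MK-8722, beside 52.8% and 21.1% of all genes. By an edgeR adjusted p under 0.05 alone, torin1 had 3 members (Map1lc3b, Gabarap and Gabarapl2) and MK-8722 had 1 (Gabarapl1). Of all 15401 genes, 8785 passed in this way for torin1 and 3198 for MK-8722, so both counts are near the background. Map1lc3b stood in DKO at 116.7, 120.0, 127.2 and 122.2 CPM under DMSO, at 150.9, 135.5, 150.9 and 145.7 CPM with torin1, and at 116.1, 107.5, 114.8 and 121.4 CPM with MK-8722. Its torin1 libraries lay above the DMSO libraries without overlap, and the log2 fold change of 0.262 ± 0.041 (edgeR adjusted p = 7.82e-06) fell just short of the fold threshold. DESeq2's Wald test put it at 0.27 and called it, as did the fit without the WT libraries of passage 11 at 0.28. With MK-8722 its value was -0.08 ± 0.041 (adjusted p = 0.178), and the groups overlapped.

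Gabarap stood in DKO at 140.6, 131.5, 141.3 and 143.6 CPM under DMSO, at 130.6, 125.2, 124.5 and 118.6 CPM with torin1, and at 145.2, 149.0, 137.2 and 130.3 CPM with MK-8722. All torin1 libraries lay below all DMSO libraries, the opposite side from WT. The log2 fold change was -0.16 ± 0.043 with torin1 (adjusted p = 0.00304, fold 1.12 lower) and 0.01 ± 0.043 with MK-8722 (adjusted p = 0.883). Gabarapl1 stood at 47.1, 50.3, 51.6 and 50.6 CPM under DMSO, at 49.1, 45.2, 52.4 and 52.3 CPM with torin1, and at 55.99, 53.99, 61.7 and 58.0 CPM with MK-8722. With torin1 its libraries overlapped those under DMSO (-0.0046 ± 0.048, adjusted p = 0.948), and they lay above them with MK-8722 (0.20 ± 0.048, adjusted p = 0.00417, fold 1.15, below the threshold). Map1lc3a was between 43.4 and 50.0 CPM and Gabarapl2 between 54.8 and 69.2 CPM in all 12 DKO libraries. Gabarapl2 was at -0.11 ± 0.045 with torin1 (edgeR adjusted p = 0.0378, fold 1.08 lower, no overlap with DMSO). With MK-8722 it was at 0.12 ± 0.045 (adjusted p = 0.0692, fold 1.08, with overlap). Neither was called, and both lay on the same side of 0 as in WT.

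The difference between the genotypes in the response to a drug was tested as its log2 fold change in DKO minus that in WT. For each drug, Map1lc3b, Gabarap and Gabarapl1 were called with a lower response in DKO, 3 of 5 members with 0 higher, where 6.33% of all genes had a lower response called for torin1 and 4.68% a higher one (11.0% in all), and 4.08% a lower one and 1.42% a higher one for MK-8722 (5.49% in all). For Map1lc3b the response was lower by about the same amount for the 2 drugs, -0.65 ± 0.058 for torin1 and -0.66 ± 0.058 for MK-8722 (edgeR adjusted p = 4.04e-08 and 3.91e-08). For Gabarap it was -0.78 ± 0.061 (adjusted p = 5.86e-09) and -0.55 ± 0.061 (adjusted p = 1.24e-06). For Gabarapl1 it was -0.36 ± 0.068 (adjusted p = 0.000687) and -0.29 ± 0.067 (adjusted p = 0.00774). The 2 drug comparisons of a genotype share their DMSO libraries, so the values for torin1 and MK-8722 are not independent of each other.

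Map1lc3a and Gabarapl2 had no called difference in response. Their 95% intervals were -0.07 to 0.23 and -0.13 to 0.14 for torin1 and -0.16 to 0.14 and -0.26 to 0.01 for MK-8722, so a difference past the fold threshold lay outside each of them. In a test against a fold of 1.2 rather than against 0, the Gabarapl1 responses were no longer called (adjusted p = 0.336 for torin1 and 1 for MK-8722), while those of Map1lc3b and Gabarap were. Without WT passage 11 the responses of Map1lc3b, Gabarap and Gabarapl1 were -0.61, -0.76 and -0.34 for torin1 and -0.66, -0.55 and -0.32 for MK-8722.

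**Figure D3:**
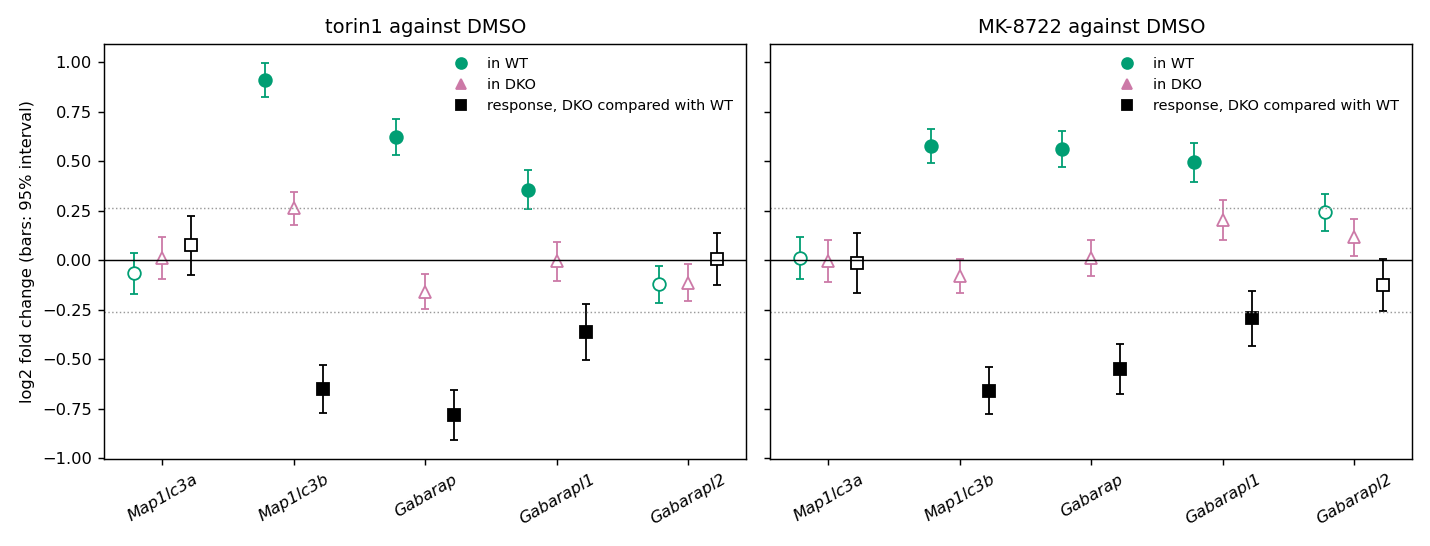
Log2 fold change of each member (y axis; bars are 95% intervals) with torin1 (left) and MK-8722 (right) against DMSO, in WT, in DKO, and as the difference DKO minus WT; filled symbols were called and dotted lines mark a fold of 1.2. Map1lc3b, Gabarap and Gabarapl1 are filled above 0 in WT, open in DKO and filled below 0 for the difference, and Map1lc3a and Gabarapl2 are open throughout.

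Between the genotypes without a drug, Map1lc3b was higher in DKO, which was the opposite of its position with a drug. Under DMSO 1 of 5 members was called higher and 0 lower, where 23.5% of all genes were called higher and 24.6% lower, 48.2% either way. The libraries of the 2 genotypes did not overlap for 2 members and for 56.8% of all genes. The 4 DKO libraries of Map1lc3b (116.7 to 127.2 CPM) lay above the 4 WT libraries (90.1 to 97.3 CPM), at a log2 fold change of 0.36 ± 0.041 (edgeR adjusted p = 5.95e-08, fold 1.29). Gabarapl1 was on the other side, with all DKO libraries (47.1 to 51.6 CPM) below all WT libraries (56.5 to 60.9 CPM), at -0.23 ± 0.048 (adjusted p = 0.000276, fold 1.17 lower, not called). Gabarap was at 0.11 ± 0.043 (adjusted p = 0.03, fold 1.08, not called), with overlapping groups.

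With torin1, 3 members were lower in DKO than in WT and 0 higher, where 27.8% of all genes were called lower. They were Gabarap at -0.67 ± 0.043 (edgeR adjusted p = 4.66e-12, fold 1.59 lower), Gabarapl1 at -0.59 ± 0.048 (adjusted p = 2.68e-10, fold 1.5 lower) and Map1lc3b at -0.29 ± 0.041 (adjusted p = 1.62e-06, fold 1.22 lower). With MK-8722, 25.4% of all genes were called lower and 23.3% higher, 48.7% either way. The same 3 members were lower and 0 higher, in the same order at -0.44 ± 0.043 (adjusted p = 6.49e-09), -0.52 ± 0.048 (adjusted p = 2.32e-09) and -0.29 ± 0.041 (adjusted p = 1.33e-06, fold 1.23 lower). For each of them the DKO and WT libraries did not overlap, nor did those of Gabarapl2 with torin1 (0.08 ± 0.045, adjusted p = 0.133), as was the case for 60.3% of all genes with torin1 and 54.7% with MK-8722. The lower level of Map1lc3b in DKO with a drug was not called once transcript length was taken into account (-0.13 with torin1 and -0.16 with MK-8722) or in the test against a fold of 1.2 (adjusted p = 0.227 and 0.193), and without DKO torin1 replicate 2 the torin1 value was -0.24 and not called. The epithelial marker sum and the passages in hand also differed between the lines, and their part in these differences was not tested.

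Set against each other in the same cells, torin1 and MK-8722 differed for Map1lc3b and Gabarapl2. In WT, 2 of 5 members were called, 1 higher with torin1 and 1 lower, where 44.9% of all genes were called either way. Map1lc3b was higher with torin1 by 0.34 ± 0.041 on the log2 scale in WT (edgeR adjusted p = 2.7e-07, fold 1.26) and by 0.34 ± 0.041 in DKO (adjusted p = 2.17e-07, fold 1.27), without overlap of the libraries in either genotype. In DKO it was 1 member higher and 0 lower, where 21.1% of all genes were called higher and 40.4% either way. The libraries of the 2 drugs did not overlap for 3 members in each genotype, beside 52.2% of all genes in WT and 49.9% in DKO. Gabarapl2 was lower with torin1 than with MK-8722 by -0.36 ± 0.045 in WT (adjusted p = 3.91e-07, fold 1.29 lower) and by -0.23 ± 0.045 in DKO (adjusted p = 0.000148, fold 1.17 lower, not called), again without overlap. Gabarap did not pass in WT (0.06, 95% interval -0.03 to 0.15) and was at -0.17 in DKO (adjusted p = 0.00171, fold 1.13 lower, not called). Gabarapl1 was at -0.14 in WT (adjusted p = 0.015, fold 1.1 lower) and -0.21 in DKO (adjusted p = 0.000785, fold 1.15 lower), not called in either.

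The estimated counts of a gene sum over its annotated transcripts, 19 for the 5 members. Map1lc3b was split over its full-length coding transcript of 2532 bases (ENSMUST00000034270), which ends at position 121598760, and 2 shorter coding transcripts of 766 bases (ENSMUST00000181948) and 775 bases (ENSMUST00000181521), which end at 121597012 and 121596995. The full-length transcript held 42.2 to 49.3% of the gene's TPM in the 12 WT libraries and 35.5 to 39.3% in the 12 DKO libraries, without overlap. It was the only transcript of the 19 whose share did not overlap between the genotypes, and it was singled out after its values were seen. How often shares do not overlap among the transcripts of all genes was not computed, so this count has no background beside it. The drugs moved the share little, with group means of 44.4 to 45.3% in WT and 37.3 to 37.7% in DKO. In TPM the full-length transcript alone stood at 42.2 ± 0.463 in WT and 48.7 ± 2.17 in DKO under DMSO (SD, n = 4), at 82.8 ± 2.28 and 60.5 ± 3.73 with torin1, and at 64.0 ± 0.933 and 47.2 ± 2.495 with MK-8722. With a length offset in edgeR, the DKO value of Map1lc3b over WT under DMSO was 0.51 in place of 0.36, and its responses were -0.64 for torin1 and -0.67 for MK-8722.

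**Figure D4:**
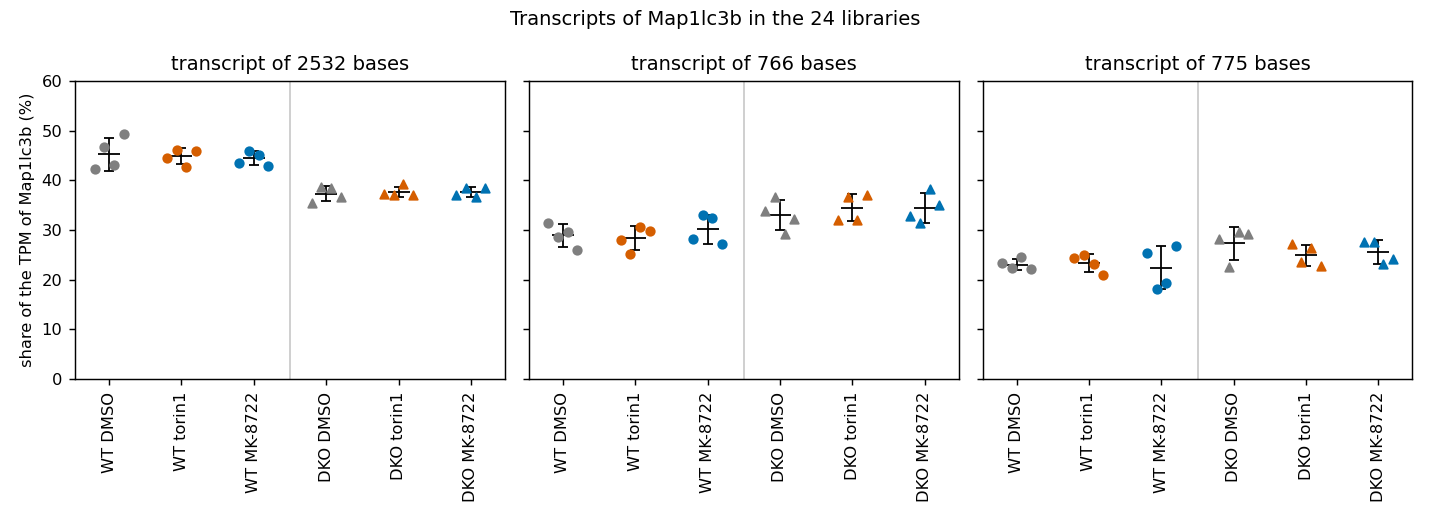
Share of the TPM of Map1lc3b (y axis, %) held by its 3 leading transcripts in the 24 libraries by group; circles are WT and triangles DKO libraries, and black lines give the mean ± SD of 4. The 2532-base transcript is at 42.2% or more in every WT library and at 39.3% or less in every DKO library, while the 2 shorter transcripts overlap between the genotypes.

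In the other members the leading transcripts kept similar shares. Gabarap was led by coding transcripts of 750 bases (51.4% of its TPM on average) and 1351 bases (38.9%), Gabarapl1 by its 1820-base coding transcript (68.7%), and Map1lc3a by its 1112-base coding transcript (71.1%). Gabarapl2 was unlike them, since a transcript annotated as a retained intron held 44.8 to 52.9% of its TPM and its coding transcript 46.2 to 54.6%. When only coding transcripts were counted, a choice made after seeing the data, the number of members called stayed the same in all 11 comparisons. Reads could also be shared with near-identical copies. Map1lc3b shares stretches of 52 bases, the read length, with the processed pseudogene Gm6055, whose summed counts were 1.51% of those of Map1lc3b. Map1lc3b also lies within the span of the gene Gm20388 on the same strand, with an overlap of 8400 bases. Genes other than pseudogenes were listed only above a minimum share of such stretches. Gm20388 did not reach that minimum, and a smaller share was not looked at. Its summed count over the 24 libraries was 55370, beside 1360 for Gm6055, and its part in the counts of Map1lc3b was not tested. Gabarapl2 shares such stretches with Gm3724, at 0.565% of its counts, and the antisense gene 1700101I11Rik, which overlaps Gabarapl1, had 0.291% of the counts of Gabarapl1.

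Of the 11 genes listed for the conjugation and processing of ATG8 proteins, 4 had a lower response to torin1 called in DKO and 0 a higher one, and 1 had a lower response to MK-8722, beside 6.33% of all genes lower for torin1 and 4.08% for MK-8722. In the test against a fold of 1.2 these counts were 1 and 0, and with the length offset the torin1 count was 2. The list's median response was -0.10 for torin1 and -0.07 for MK-8722, beside -0.01 and 0.01 over all genes. Atg3, which passes ATG8 proteins to the lipid, was lower for both drugs at -0.63 ± 0.062 (edgeR adjusted p = 2.15e-07) and -0.39 ± 0.062 (adjusted p = 0.00018). Atg3 was not called with torin1 in WT (0.12 ± 0.044) and fell in DKO (-0.51 ± 0.044, adjusted p = 1.43e-09). For torin1 the ATG4 protease Atg4c was at -0.52 ± 0.13 (adjusted p = 0.00866) and Atg16l2, a paralogue of Atg16l1, at -0.40 ± 0.086 (adjusted p = 0.00224), and Atg4d was the other gene called. Atg4d fell with torin1 in both genotypes, by more in DKO.

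Among 18 listed receptors and adaptors that bind ATG8 proteins, 3 had a lower response to torin1 in DKO and 1 a higher one, and 4 had a lower response to MK-8722 and 0 a higher one. Of all genes, 6.33% were lower and 4.68% higher for torin1, so 1 higher gene of 18 is near the background, and 4.08% were lower and 1.42% higher for MK-8722. In the test against a fold of 1.2 there was 1 lower gene for each drug and 0 higher, and without WT DMSO replicate 1 there was 1 lower and 1 higher for torin1. The list's median was -0.08 for torin1 and -0.01 for MK-8722, beside -0.01 and 0.01 over all genes. Sqstm1, the receptor p62 for ubiquitinated cargo, was called for both drugs, at -0.85 ± 0.16 for torin1 and -0.65 ± 0.16 for MK-8722 (edgeR adjusted p = 0.000623 and 0.0111). Like Map1lc3b it was higher in DKO under DMSO, at 583 ± 104 CPM (SD, n = 4) beside 297 ± 27.4 CPM in WT. Unlike Map1lc3b its mean was not lower in DKO with a drug. With torin1 Sqstm1 was at 641.1 ± 32.24 CPM in DKO beside 588.3 ± 20.95 CPM in WT. With MK-8722 it was at 677.5 ± 135.4 CPM in DKO beside 541.5 ± 48.39 CPM in WT. The other genes with a lower response to torin1 were the mitophagy receptor Bnip3 (-0.38 ± 0.11, adjusted p = 0.0186) and the ER-phagy receptor Ccpg1 (-0.36 ± 0.10, adjusted p = 0.0175), and the gene with a higher one was Calcoco1. For MK-8722 they were the ER-phagy receptors Retreg1 (-0.78 ± 0.10, adjusted p = 2.27e-05) and Tex264 (-0.34 ± 0.051, adjusted p = 8.97e-05) and the mitophagy receptor Bnip3l. The mean of Bnip3 was lower with torin1 than under DMSO in both genotypes. It went from 12.37 to 11.11 CPM in WT, where the libraries overlapped, and from 15.58 to 10.73 CPM in DKO.

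**Figure D5:**
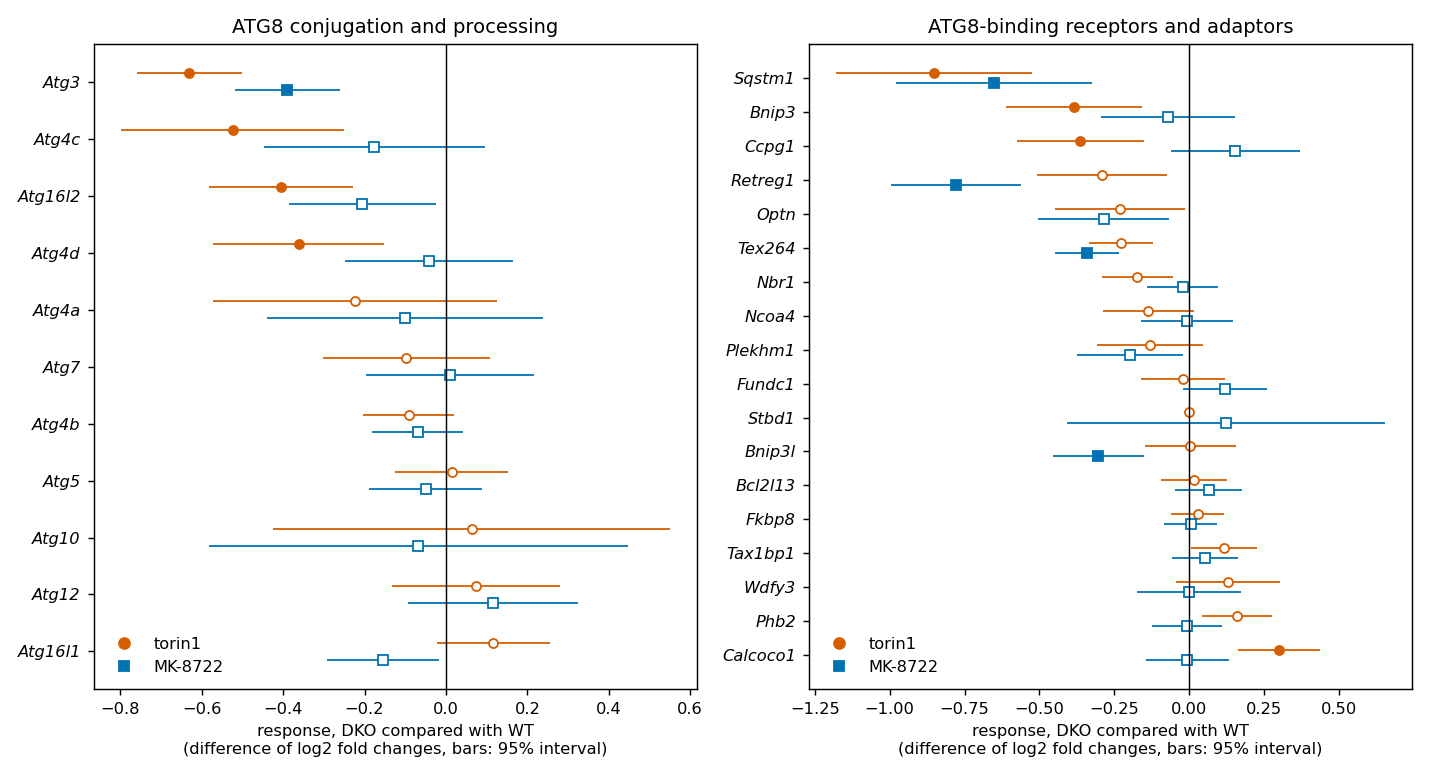
Response of each listed gene to torin1 and MK-8722 in DKO compared with WT (x axis, difference of log2 fold changes with 95% intervals; filled symbols were called), for 11 conjugation and processing genes and 18 receptors and adaptors. Atg3 and Sqstm1 are filled below 0 for both drugs and Calcoco1 is filled above 0 for torin1; no interval is drawn for Stbd1 with torin1, where the standard error could not be computed.

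The genes whose log2 CPM followed each member most closely over the 24 libraries were found among 10665 genes whose mean log2 CPM reached 2. The libraries fall into 6 groups, so these values of Pearson's r mostly describe group means, and they are given as a description. Map1lc3b was followed by Wdr81 (r = 0.975), Washc1 (0.962) and Gorasp1 (0.952). Gabarap was followed by the V-ATPase genes Atp6v0d1 (r = 0.967) and Atp6v1b2 (0.96). Gabarapl1 was followed by Asah1 (r = 0.962), the lysosomal acid ceramidase, by Eno2 (0.959) and by Atp6v1f (0.95), also of the V-ATPase. Gabarapl2 was closest to Cox17 (r = 0.90), Lpin2 (0.90) and 5031439G07Rik (0.898). Map1lc3a, which was called in no comparison, had the lowest values, with Tdp1 (r = 0.724), Adamts1 (0.636) and Timp2 (0.605).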

How the data were processed

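Reads were processed by the authors with nf-core/rnaseq (STAR, Salmon, unique molecular identifiers) on GRCm38, and the deposited tables hold estimated counts and TPM from Salmon for genes and for transcripts. The estimated counts are not scaled for depth or length and were rounded here to whole numbers. The members and gene lists were chosen with earlier results of these data known. Genes were filtered with filterByExpr (minimum count 10), libraries scaled by TMM, and 24 libraries fitted with 1 mean per group by the quasi-likelihood method of edgeR 4.0.16 in its edgeR 3 form (R 4.3.3), with 18 residual degrees of freedom and a biological coefficient of variation of 10.7%. In all, 11 contrasts were tested, with p-values adjusted over 15401 genes. The authors removed a batch effect in their own analysis, but the labels give a single batch, so none was removed here. CPM values use TMM factors (0.95 to 1.08). Groups came from the sample labels, and 0 columns lacked a sample. P-values measure the spread between passages of each line. RNA integrity was 9.7 to 9.9, except 7.9 in DKO MK-8722 replicate 3. Named genes were the members, Tfeb and Tfe3, list genes called for a response (with values for the 3 lowest of each list), the 3 genes most correlated with each member (1 of them is not reported here), and annotated pseudogenes. Alternatives covered filters, scaling, DESeq2 1.42.0, limma 3.58.1, thresholds, length, blocks, groups fitted and left-out libraries. Coordinates are from GENCODE on GRCm38 and promoters from RefSeq. The fit was tested on simulated data. Replicates of a group differed by more than sampling noise.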

Additional observations from a re-analysis of the deposited data

Results flagged for a closer look

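The responses of 3 members to both drugs differed between the genotypes by the test of the difference itself, edgeR's quasi-likelihood interaction contrast. For torin1 the log2 difference, DKO minus WT, was -0.65 for Map1lc3b, -0.78 for Gabarap and -0.36 for Gabarapl1. For MK-8722 it was -0.66 for Map1lc3b, -0.55 for Gabarap and -0.29 for Gabarapl1. Within the 4 libraries of each group, no member had a library past Dixon's critical value at the 95% level.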

How the results depend on the processing

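Among the counts of called members, torin1 against DMSO in DKO moved from 0 to 1 (Map1lc3b, log2 0.26 to 0.30) with at least 10 counts in every library, DESeq2 size factors, library size alone, DESeq2's Wald test, processed pseudogenes added, only the groups compared, or WT passage 11 left out, and to 3 by adjusted p alone. By adjusted p alone MK-8722 in DKO moved from 0 to 1 and DKO against WT under DMSO from 1 to 3. Torin1 against MK-8722 in DKO moved from 1 to 4. Of all 15401 genes, 3198, 9727 and 8559 passed by adjusted p alone in these 3 comparisons. The counts of 1 and 3 are near that background. Gabarapl2 with either drug in WT and Gabarapl1 for torin1 against MK-8722 in WT also passed by adjusted p alone. Library size alone gave 2 for DKO against WT under DMSO, where 7422 of all genes were called. Leaving out 1 library gave 0 to 1 for torin1 in DKO (1 without DKO DMSO replicate 3, DKO torin1 replicate 2 or DKO torin1 replicate 4), 3 to 4 for MK-8722 in WT, 2 to 3 for the response to MK-8722 (without WT MK-8722 replicate 4 Gabarapl1 was at -0.26) and 2 to 3 for DKO against WT with torin1. Without the filter Map1lc3b was at -0.26 there and not called. The cause of these changes was not tested. Coding transcripts alone, added pseudogenes and the left-out passage were chosen after seeing the data.

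Values near 0 that were not called changed sign. For Gabarapl1 with torin1 in DKO they were 0.01352 with 10 counts in every library, 0.002904 with DESeq2 size factors, 0.03097 with library size alone, 0.003755 by DESeq2's Wald test, 0.03132 with the length offset and 0.009381 without WT passage 11. For Map1lc3a with MK-8722 in DKO they were, in the same order, 0.001935, 0.004213, 0.008458, 0.005211, 0.001845 and 0.00557, and 0.003917 by limma voom, 0.001247 with a passage block and 0.00142 with only the groups compared. For Map1lc3a in DKO against WT with torin1 they were -0.03366 with 10 counts in every library, -0.1269 with library size alone, -0.001275 by voom and -0.003184 with the length offset. For the response of Gabarapl2 to torin1 they were -0.002349 with 10 counts in every library, -0.04843 with library size alone and -0.0009638 with coding transcripts alone. Without a filter Map1lc3a was at -0.01255 with torin1 in DKO and at -0.00161 for torin1 against MK-8722 in DKO. Library size alone, which moved the median of all genes to 0.14 for torin1 in WT, gave 0.02586 for Map1lc3a with torin1 in WT, 6.271e-05 for Map1lc3a in torin1 against MK-8722 in WT, and -0.0002054 and -0.04864 for Gabarapl2 in DKO against WT under DMSO and torin1.

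With 1 library left out, Map1lc3a ranged from -0.01931 to 0.0458 with MK-8722 in WT, -0.05111 to 0.01687 for the response to MK-8722, -0.006279 to 0.04525 in DKO against WT with torin1, -0.03288 to 0.05089 with torin1 in DKO, -0.0382 to 0.02954 with MK-8722 in DKO and -0.0008196 to 0.05337 for torin1 against MK-8722 in DKO. Gabarapl1 ranged from -0.02455 to 0.04477 with torin1 in DKO, Gabarap from -0.0167 to 0.04491 with MK-8722 in DKO, and the torin1 response of Gabarapl2 from -0.01941 to 0.06817.

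Samples were not paired by replicate number in the main fit. Of same-numbered pairs of libraries, 13 of 60 had deviations correlated over 0.1 (median 0.044), and of other-numbered pairs 21 of 180 did (median -0.0113). Within a genotype, 17 of 24 pairs of the same passage and 7 of 72 pairs of other passages did, and a block on passage within genotype changed no count of called members in the 8 comparisons it was run for. With the replicate block the responses of Map1lc3b, Gabarap and Gabarapl1 were -0.65, -0.78 and -0.36 for torin1 and -0.66, -0.55 and -0.29 for MK-8722, and no count of called members changed.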

Other observations

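Tfeb and Tfe3 transcripts themselves moved in the opposite direction to the 3 ATG8 genes that rose in WT. Tfeb fell there by 0.57 with torin1 and by 0.39 with MK-8722 on the log2 scale (edgeR adjusted p = 1.49e-06 and 0.000476), and Tfe3 fell by 0.58 and 0.29 (adjusted p = 6.25e-13 and 2.69e-07). In DKO with torin1 the remaining Tfe3 transcript fell by 0.42 (adjusted p = 1.28e-10).

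Stbd1, which links glycogen to Gabarapl1, was chosen after its values were seen. It was lower in DKO under DMSO at -3.29 ± 0.18 on the log2 scale, and it rose with torin1 in WT (0.82 ± 0.14) and in DKO (0.82 ± 0.21), with no called difference between the responses. In DKO its level was near the floor, at 1.26 ± 0.527 CPM under DMSO and 2.19 ± 0.332 CPM with torin1 (SD, n = 4). In WT it was at 12.2 ± 1.06 and 21.5 ± 1.63 CPM, so its response was measured less well in DKO. Gabarapl1 was also lower in DKO under DMSO, at -0.23 ± 0.048, though below the fold threshold.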
